A study of Rattus norvegicus with 18 samples.

Results

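This account concerns 10 genes of insulin, mTOR and adiponectin receptor signalling in rat peripheral blood mononuclear cells: the insulin receptor Insr, its adaptors Irs1 and Irs2, the phosphoinositide kinase subunit Pik3r1, the kinases Akt1, Akt2 and Mtor, the glucose transporter Slc2a4, and the adiponectin receptors Adipor1 and Adipor2. Every probe whose gene name on the array equalled one of these symbols was taken, with the older name Frap1 read as Mtor. That gave 15 probes, of 41012 different probes on the array. RNA came from male Wistar rats that were 2 months old when a purified diet was begun and that ate it for 4 months. HPD is a high protein diet (45% of energy from protein, mainly casein, 45% from carbohydrate and 10% from fat), with 6 arrays. HFD is a high fat diet (60% of energy from fat, 20% from protein and 20% from carbohydrate), with 6 arrays. LFD is the low fat control diet (10% of energy from fat, 20% from protein and 70% from carbohydrate), with 6 arrays. LFD rats ate freely, HPD and HFD rats were given the same energy as the LFD rats had eaten the day before, and all had fasted for 14 h. The cells were separated from heparinised blood on a Ficoll gradient. On each 2-colour array the RNA of 1 animal, in Cy5, was set against a pool made from the Cy3-labelled samples, so each value is the log2 ratio of an animal to that pool. The title of 1 array says HFD and its source name says HPD, and it was counted as HPD replicate 7.

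Insulin binds a receptor tyrosine kinase, which phosphorylates the insulin receptor substrates. These recruit phosphoinositide 3-kinase, whose lipid product brings Akt to the membrane, and Akt in turn acts on glucose transport and on mTOR, a kinase that couples growth factors and amino acids to protein synthesis. Adiponectin, a hormone of fat tissue, acts through its own pair of receptors, which are linked to the energy-sensing kinase AMPK. In muscle and fat, insulin moves the transporter encoded by Slc2a4 (GLUT4) to the cell surface. In blood, leukocytes and platelets carry insulin receptors and parts of the same pathway.

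Slc2a4 had the lowest differences from LFD in both HPD and HFD. At its bright probe (probe 2) the log2 difference was -0.95 in HPD vs LFD and -0.52 in HFD vs LFD. At its dim probe (probe 1) it was -1.29 and -1.14, but only 3 of 6 HPD and 3 of 6 HFD arrays were above background there, and the values were -0.185 and -0.151 when the background was modelled by normexp. No difference passed the test across all probes, for Slc2a4 or for any other member. Akt2 and Adipor1 had log2 differences of -0.33 and -0.26 in HPD vs LFD. The Adipor1 value was -0.136 without LFD replicate 2 and -0.14 with slide as a block. The Akt1 and Mtor differences in HPD vs LFD turned on single LFD arrays, and in HPD vs HFD the Mtor difference was -0.256, with an SD of 0.15 inside each diet. Insr and Irs1 were at background.

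Of the 15 probes, 13, of 8 genes, were above background in Cy5 on at least 5 of 18 arrays and were tested within the 25207 probes that passed the same filter. No member passed an adjusted p of 0.05 (limma with Benjamini-Hochberg adjustment, two-sided) in HPD vs LFD, HPD vs HFD or HFD vs LFD, where 0, 0 and 0 of 25207 probes passed (0% called in each). At an unadjusted p under 0.05, 2 of 13 member probes were reached in HPD vs LFD (background 2.84%, 716 probes), 0 in HPD vs HFD (3.02%, 761 probes) and 1 in HFD vs LFD (2.01%, 506 probes). These 3 were Slc2a4 probes. In the test for any diet, 0 of 25207 probes passed (0%), and 1 of 13 members, Slc2a4 probe 1, reached an unadjusted p under 0.05 (background 2.3%). No member's groups were free of overlap in any comparison, against 0.0799% of all probes in HPD vs LFD, 0.24% in HPD vs HFD and 0.0839% in HFD vs LFD. The difference was below 0 for 11 of 13 member probes in HPD vs LFD (46.1% of all probes), 10 of 13 in HPD vs HFD (47.7%) and 9 of 13 in HFD vs LFD (48.5%). Several of these probes belong to 1 gene and the members shared arrays, so these counts are not independent. The median member difference was -0.098, -0.19 and -0.029 in the same order of comparisons, against 0.017, 0.011 and 0.006 over all probes. Without HPD replicate 7, whose labels differ, the HPD vs LFD difference was -0.243 ± 0.241 (SE) for Akt1, -0.331 ± 0.20 for Akt2, -0.274 ± 0.16 for Adipor1, -0.05 ± 0.282 for Mtor and 0.006 ± 0.214 for Pik3r1 (adjusted p 1 each, limma).

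**Figure D1:**
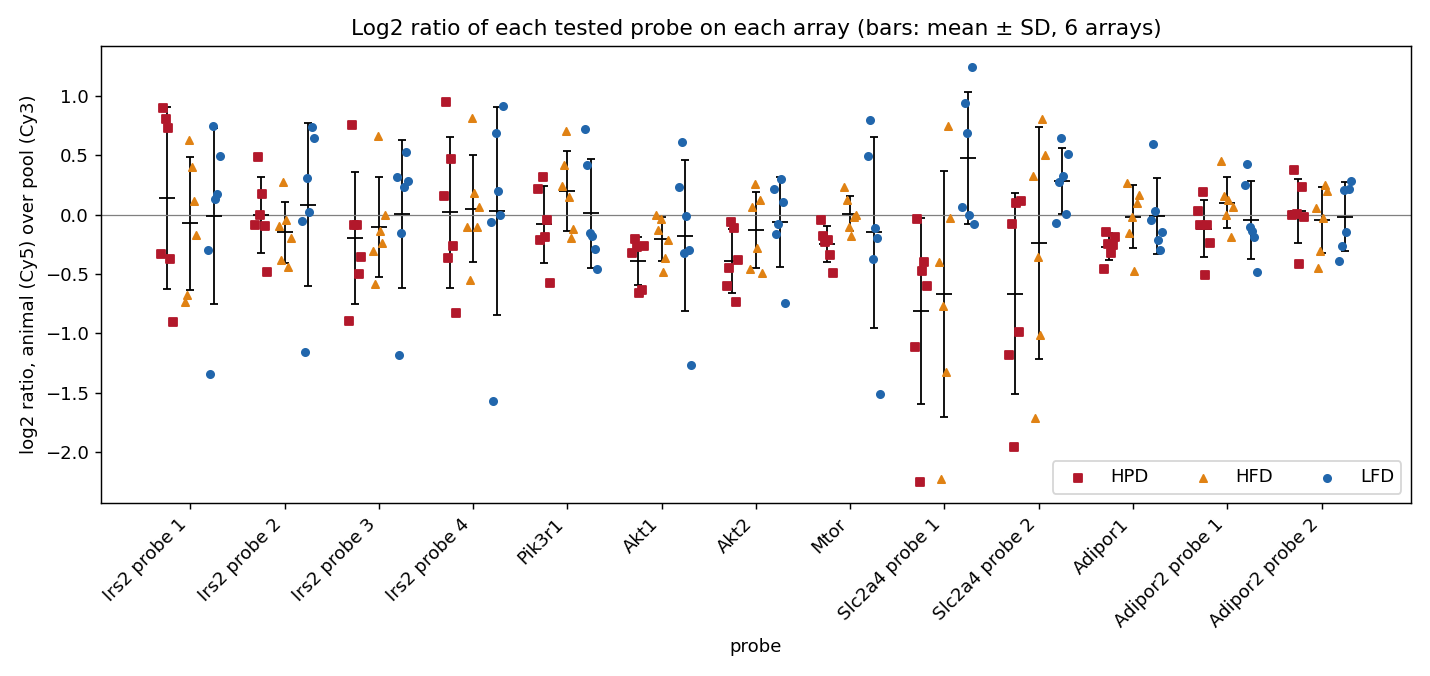
Log2 ratio of animal over pool for each of the 13 tested probes (x axis, probes; y axis, log2 ratio), with 1 point per array for HPD (squares), HFD (triangles) and LFD (circles) and black bars for the mean ± SD of 6 arrays. The Slc2a4 probes spread most in HPD and HFD, down to -2.25, while LFD replicate 6 lies at -1.51 for Mtor and -1.26 for Akt1.

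Between 53.1 and 63.4% of probes were well above background per array, and median Cy5 signals of 61.5 to 84.3 intensity units stood over local backgrounds of 31 to 37. The number of arrays limits the precision, and the median standard error of a diet difference was 0.206. LFD replicates 2 and 6 stood apart, with a median absolute deviation of the log2 ratios over tested probes of 0.58 and 0.618, against 0.271 to 0.401 on the other arrays. Ratios on different arrays correlated between -0.50 and 0.61 over tested probes, and the directions given here rest on the labels, which state the dyes. HFD replicates 1 and 6 were the most alike pair. The arrays lay on 5 slides, of which slide 1 held 2 HFD and 2 LFD arrays and no HPD array. Slide, with diet in the model, called 89 of 25207 probes (0.353%) and no member (lowest adjusted p 0.122, limma, for Adipor2 probe 1). Unadjusted, the slide p was 0.0105 for Adipor2 probe 1, 0.0144 for Akt1, 0.022 for Mtor and 0.0336 for Pik3r1 (limma). For the other member probes it was 0.0569 or more, so a part of slide in the members remains possible. The labelled cell type matched its markers: 8 of 8 T cell genes, 5 of 5 B cell genes, 6 of 6 cytotoxic cell genes and 6 of 7 monocyte genes on the array were above background on all 18 arrays. So were 9 of 9 platelet genes and 12 of 14 erythroid genes. Fewer cells of a type and less RNA per cell cannot be told apart in these samples. The labels call the samples individual and say nothing of cages or litters, and p-values measure the spread between these samples, which may be technical in part.

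The insulin receptor was at the limit of detection. The Insr probe (chromosome 12, 3087143 to 3087201, rat build rn4) was above background on 0 of 6 HPD arrays, 1 of 6 HFD arrays and 0 of 6 LFD arrays. Its Cy5 signal ran from 6.88 to 11.4 intensity units in HPD, 4.59 to 18.2 in HFD and 3.15 to 16.6 in LFD. Irs1, the adaptor that predominates in muscle and fat, was also at background, on 18 of 18 arrays. Its probe (chromosome 9, 81585685 to 81585744) was spotted 10 times, and its median signals were 4.99 units in HPD, 5.96 in HFD and 6.27 in LFD. Both genes were not well above background on nearly all arrays of every diet, so no fold was taken for them and neither was tested.

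Irs2, the adaptor that carries much of the insulin signal in liver and beta cells, was above background on all 18 arrays at each of 4 probes. Probes 1 to 3 lie within chromosome 16, 83381868 to 83383334, and probe 4 at 83403814 to 83403873, 21946 bases from probe 1 in rn4. At probe 4 the lowest, median and highest log2 ratios were -0.83, -0.054 and 0.95 in HPD, -0.55, -0.019 and 0.81 in HFD, and -1.57, 0.10 and 0.92 in LFD. The groups overlapped over almost their whole range, and the lowest array was LFD replicate 2. The probe 4 difference was -0.010 in HPD vs LFD (95% confidence interval -0.78 to 0.76), -0.032 in HPD vs HFD (-0.80 to 0.74) and 0.022 in HFD vs LFD (-0.75 to 0.79), so differences of up to about these sizes remain possible. At probe 1 the values ran from -0.90 to 0.90 in HPD, -0.73 to 0.63 in HFD and -1.34 to 0.75 in LFD. Probe 2 ran from -0.48 to 0.48 in HPD, -0.44 to 0.27 in HFD and -1.16 to 0.74 in LFD, and probe 3 from -0.90 to 0.76 in HPD, -0.59 to 0.66 in HFD and -1.18 to 0.53 in LFD. LFD replicate 2 had the lowest LFD value at all 4 probes.

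The 4 Irs2 probes moved together across animals. Over 18 arrays Pearson's r between pairs of them ran from 0.69 to 0.85 and Spearman's rho from 0.68 to 0.81. Probes 2 and 4 were the closest pair (r = 0.85, rho = 0.80, permutation p 1e-05, the smallest that 100000 resamples can give, and 0.0002; adjusted over 78 pairs of member probes 0.00039 and 0.0052). Without LFD replicates 2 and 5, which lay farthest from the median of probe 2, r was 0.90, and with slide means removed it was 0.79. The spread between animals of 1 diet was an SD of 0.68 at probe 4, larger than any diet difference at that probe. The sign of the small differences changed between probes: in HPD vs LFD probe 1 gave 0.15 ± 0.38 (SE), probe 2 -0.086 ± 0.25, probe 3 -0.20 ± 0.29 and probe 4 -0.010 ± 0.37. With slide as a block all 4 were below 0 in HPD vs LFD, from -0.43 to -0.14, and unadjusted p-values stayed between 0.198 and 0.721 (adjusted 0.999 each, limma).

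**Figure D2:**
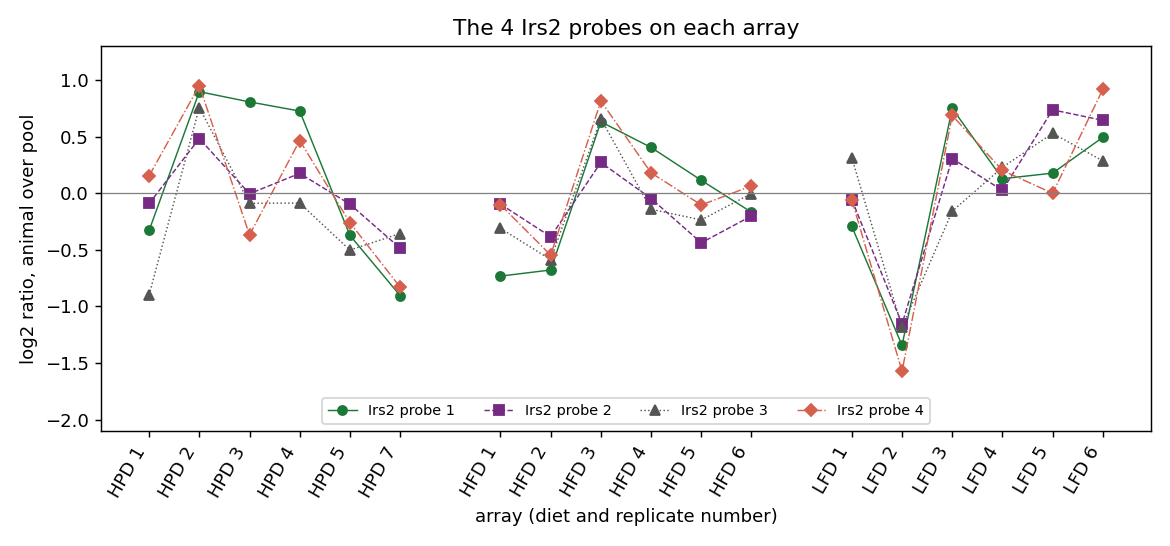
Log2 ratio of the 4 Irs2 probes (y axis) on each of 18 arrays (x axis, diet and replicate number, HPD, HFD and LFD from left to right). The 4 probes follow each other from array to array, with HPD replicate 2 and HFD replicate 3 high and LFD replicate 2 lowest at between -1.57 and -1.16.

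Pik3r1 encodes the p85alpha regulatory subunit of phosphoinositide 3-kinase. Its probe (chromosome 2, 32606419 to 32606478) gave a lowest, median and highest log2 ratio of -0.57, -0.12 and 0.32 in HPD, -0.20, 0.19 and 0.70 in HFD, and -0.46, -0.16 and 0.72 in LFD. Most HFD arrays lay above the median of the other diets, but the highest value was an LFD array. The difference was -0.092 ± 0.21 in HPD vs LFD, -0.28 ± 0.21 in HPD vs HFD and 0.19 ± 0.21 in HFD vs LFD (SE; unadjusted p 0.669, 0.199 and 0.38; adjusted p 1, 0.995 and 1, limma). On the 2 slides that held HPD and HFD arrays the HPD value was lower by 0.72 on slide 2 and by 0.064 on slide 3. Slide 2 set 3 HPD arrays against 1 HFD array, replicate 3, which had the highest HFD value. Slide 3 set 1 HPD array against 2 HFD arrays.

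Akt1, the most widely expressed Akt kinase, was measured by 10 spots of 1 probe (chromosome 6, 137641146 to 137641205). Its log2 ratios were -0.66, -0.30 and -0.20 (lowest, median, highest) in HPD, -0.48, -0.17 and -0.006 in HFD, and -1.26, -0.16 and 0.61 in LFD. All 6 HPD arrays and all 6 HFD arrays were below 0, and the LFD arrays spanned both ends of the whole range. The difference in HPD vs LFD was -0.22 ± 0.22 (95% interval -0.69 to 0.25; adjusted p 1, limma). It rested on single LFD arrays: it was -0.059 ± 0.203 without LFD replicate 2, -0.434 ± 0.162 without LFD replicate 6 (unadjusted p 0.0165, adjusted 0.506, limma) and -0.29 ± 0.14 without both (unadjusted p 0.0586, adjusted 0.81), and it turned to 0.082 ± 0.206 without slide 1, the only one of 38 alternatives to change its sign. Akt1 went with the mean of 5 B cell genes over 18 arrays (r = 0.65, rho = 0.78; adjusted permutation p 0.0536 and 0.0152), at r = 0.62 without HFD replicate 1 and HPD replicate 4, at r = 0.39 with slide means removed, and within diets at 0.91 in HPD, 0.79 in HFD and 0.85 in LFD. The B cell mean ran from -0.714 to 0.282 in HPD, -0.591 to 0.457 in HFD and -0.564 to 0.151 in LFD, and its part in the Akt1 values was not tested. The spots of one array differed by a median SD of 0.041 while animals of one diet differed by an SD of 0.40, so nearly all of the scatter lay between animals or arrays and not within an array.

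Akt2, the Akt kinase most tied to glucose uptake in muscle and fat, gave log2 ratios of -0.74, -0.42 and -0.062 in HPD, -0.50, -0.11 and 0.26 in HFD, and -0.74, 0.011 and 0.30 in LFD (probe at chromosome 1, 82725226 to 82725285). All 6 HPD values were below 0, and 3 of 6 LFD values were above the highest HPD value, while the lowest value of all was an LFD array, replicate 6. The difference was -0.33 ± 0.18 in HPD vs LFD (95% interval -0.72 to 0.06, 1.26-fold lower; unadjusted p 0.0926, adjusted 1, limma), -0.26 ± 0.18 in HPD vs HFD (unadjusted p 0.178, adjusted 0.995) and -0.070 ± 0.18 in HFD vs LFD (unadjusted p 0.712, adjusted 1). Leaving out LFD replicates 2 and 6 moved the first to -0.53 ± 0.17 (unadjusted p 0.00826, adjusted 0.792). With slide as a block it was -0.50 ± 0.20 (unadjusted p 0.028, adjusted 0.999). On the slides that held both diets it was -0.66 on slide 3, with 1 array of each, and -0.48 on slide 4, with 2 of each. In HPD vs HFD the blocked value was -0.52 ± 0.20 (unadjusted p 0.0235, adjusted 0.999).

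Mtor, the catalytic kinase of both mTOR complexes, is named Frap1 on the array (chromosome 5, 165636124 to 165636183; 10 spots). Its log2 ratios were -0.49, -0.22 and -0.046 in HPD, -0.18, -0.014 and 0.23 in HFD, and -1.51, -0.15 and 0.79 in LFD. HPD and HFD arrays kept within narrow ranges (SD 0.15 in each diet), 4 of 6 HPD arrays lay below every HFD array, and the LFD arrays spread widely (SD 0.80). The difference was -0.098 ± 0.26 in HPD vs LFD, -0.26 ± 0.26 in HPD vs HFD and 0.16 ± 0.26 in HFD vs LFD (unadjusted p 0.714, 0.345 and 0.557; adjusted p 1, 0.995 and 1, limma). Without LFD replicates 2 and 6, whose values were 0.79 and -1.51, HPD vs HFD stood at -0.26 ± 0.13 (unadjusted p 0.0731, adjusted 0.853, limma), and HPD vs LFD stood at -0.20 ± 0.15. The direction of HPD vs LFD turned on these arrays, with 0.091 ± 0.238 without LFD replicate 2 alone and -0.37 ± 0.177 without LFD replicate 6 alone. It also turned to 0.031 without LFD replicate 1, to 0.05 from the Cy5 channel alone and to 0.3 without slide 1, and 34 of 38 alternatives kept its sign.

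By Pearson's r, Akt1 and Mtor followed each other across animals more closely than any other pair of member genes. Over 18 arrays r was 0.90 and rho was 0.71 (permutation p 1e-05, the smallest possible, and 0.00148; adjusted over 78 pairs 0.00039 and 0.0165). Without LFD replicates 2 and 6, which lay farthest from the Akt1 median, r was 0.68. With slide means removed it was 0.81, and within diets it was 0.07 in HPD, 0.65 in HFD and 0.99 in LFD, with 6 arrays each. Akt1 and Mtor also went with Adipor2 probe 1 (r = 0.75 and 0.76; adjusted p 0.00244 and 0.00189), and without the same 2 LFD arrays these values were 0.58 and 0.63. Of 70 pairs of probes from different genes, 7 passed the adjusted permutation test for r and 5 for both r and rho, and the median r was 0.03. The permutations shuffled all 18 arrays, not within slide or diet, so shifts shared by a slide count toward these p-values. With slide means removed, r with Adipor2 probe 1 was 0.57 for Akt1 and 0.55 for Mtor. For Pik3r1 it went from 0.66 to 0.41 with Mtor and from 0.60 to 0.23 with Akt1. With Adipor2 probe 2 the Pik3r1 value went from -0.62 to -0.39. The points of each pair share an array, its hybridisation and its animal.

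**Figure D3:**
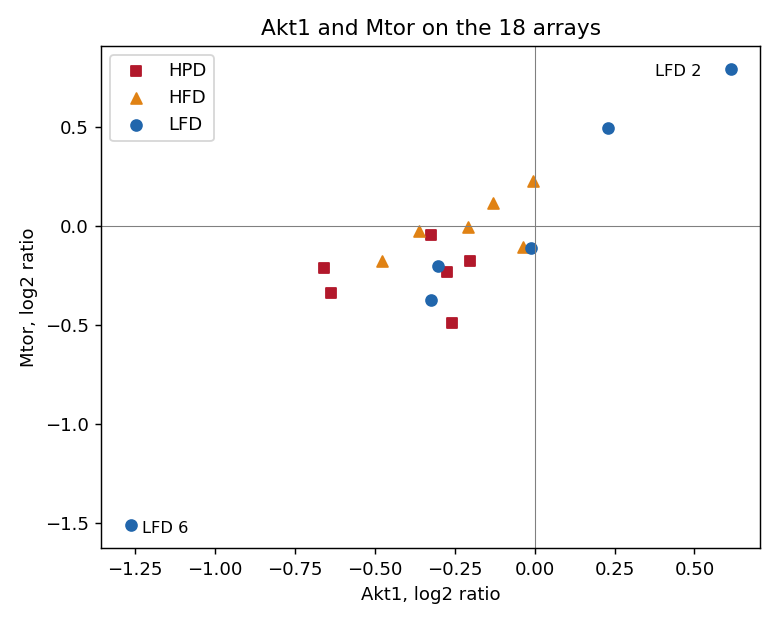
Log2 ratio of Mtor (y axis) against that of Akt1 (x axis) on 18 arrays, with HPD as squares, HFD as triangles and LFD as circles. LFD replicates 2 and 6 lie at opposite ends, and the other 16 arrays fall between them with r = 0.68.

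As the pair with the highest r, Akt1 and Mtor are shown with the 250 bases before their transcription starts, from RefSeq (build GRCr8, so not in the coordinates of the probes). The table held 8 of the 10 genes and not Irs2 or Slc2a4. Each stretch is written 5′ to 3′ on the gene's own strand, and capitals mark matches, on either strand, to GGGCGG (the GC box), to CCAAT (the CCAAT box), to CCGGAAG (a motif of ETS factors), to CACGTG (the E-box) or to TATAAA (the TATA box). No 2 matches overlapped in these stretches.
Akt1, minus strand, chr6:137552611-137552860: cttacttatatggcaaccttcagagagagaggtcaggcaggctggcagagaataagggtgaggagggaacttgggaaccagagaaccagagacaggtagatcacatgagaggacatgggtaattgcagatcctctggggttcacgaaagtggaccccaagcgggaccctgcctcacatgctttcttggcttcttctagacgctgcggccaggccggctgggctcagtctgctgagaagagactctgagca
Mtor, plus strand, chr5:164167735-164167984: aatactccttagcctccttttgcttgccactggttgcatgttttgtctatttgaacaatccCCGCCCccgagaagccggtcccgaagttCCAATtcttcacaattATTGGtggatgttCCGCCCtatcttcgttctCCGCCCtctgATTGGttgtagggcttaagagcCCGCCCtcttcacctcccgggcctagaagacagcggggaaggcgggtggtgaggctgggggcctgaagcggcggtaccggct
The Mtor stretch held 4 GC box matches, 82 to 189 bases before the start, and 3 CCAAT matches, 104 to 161 bases before it. The Akt1 stretch held none of the 5 motifs. Over 33469 promoter stretches of 250 bases, 30.5% held a GC box, 34% a CCAAT box, 7.27% the ETS motif, 5.59% the E-box and 12.9% the TATA box. Pik3r1 held 7 GC box matches and 1 CCAAT match, Irs1 and Adipor1 held 2 GC box matches each, Akt2 held 1 TATA box match, and Insr and Adipor2 held none. The share of G and C was 54.8% for Akt1 and 56.8% for Mtor, against a median of 51.2% over all stretches, and ran from 33.6% for Adipor2 to 77.2% for Pik3r1. These matches are letters in a window and show no binding.

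Slc2a4 encodes GLUT4, the glucose transporter that insulin recruits in muscle and fat. Probe 2 (chromosome 10, 56786861 to 56786920) was spotted 10 times and was above background on all 18 arrays, with Cy5 signals of 606 to 2153 intensity units in HPD, 778 to 3259 in HFD and 1478 to 4223 in LFD. Its log2 ratios were -1.95, -0.53 and 0.11 (lowest, median, highest) in HPD, -1.71, -0.014 and 0.81 in HFD, and -0.069, 0.30 and 0.65 in LFD. Of 6 HPD arrays 4 lay below every LFD array, 4 of 6 LFD arrays lay above every HPD array, and 3 of 6 HFD arrays lay below every LFD array while 1 lay above them all. The difference was -0.95 ± 0.41 in HPD vs LFD (95% interval -1.81 to -0.083, 1.93-fold lower; unadjusted p 0.0335, adjusted 1, limma), -0.42 ± 0.41 in HPD vs HFD (unadjusted p 0.318, adjusted 0.995) and -0.52 ± 0.41 in HFD vs LFD (unadjusted p 0.218, adjusted 1). The SD between animals was 0.84 in HPD and 0.98 in HFD, against 0.28 in LFD. The 10 spots of an array had a median SD of 0.030, far below the spread between animals.

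Slc2a4 probe 1 (56790782 to 56792089, listed over 1308 bases where most other member probes span 54 to 60) was dim. It was above background on 3 of 6 HPD arrays, 3 of 6 HFD arrays and 6 of 6 LFD arrays, with signals of 7.87 to 34.2 units in HPD, 7.96 to 49.5 in HFD and 33.5 to 57.3 in LFD. Its log2 ratios were -2.25, -0.54 and -0.037 in HPD, -2.23, -0.58 and 0.74 in HFD, and -0.081, 0.38 and 1.24 in LFD. The lowest HPD array (replicate 3) and the lowest HFD array (replicate 2) were the same at both probes. The difference was -1.29 ± 0.44 in HPD vs LFD (95% interval -2.21 to -0.36; unadjusted p 0.00912, adjusted 1, limma), lower than the LFD mean on 6 of 6 HPD arrays. It was -1.14 ± 0.44 in HFD vs LFD (unadjusted p 0.0182, adjusted 1), lower than the LFD mean on 5 of 6 HFD arrays, and -0.14 ± 0.44 in HPD vs HFD (unadjusted p 0.748, adjusted 0.995). Values on the arrays at background have no sure size, so no fold is given for this probe.

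The 2 Slc2a4 probes agreed across arrays, with r = 0.84 and rho = 0.71 (permutation p 2e-05 and 0.00143; adjusted 0.00052 and 0.0165). Without HFD replicate 2 and HPD replicate 3 r was 0.66, and within diets it was 0.83 in HPD, 0.98 in HFD and -0.19 in LFD. With slide as a block the HPD vs LFD differences were -1.05 ± 0.54 at probe 1 (unadjusted p 0.0746) and -0.75 ± 0.50 at probe 2 (unadjusted p 0.16), adjusted p 0.999 for both (limma). Within slide 3, with 1 array of each diet, they were -1.09 and -1.64, and within slide 4, with 2 of each, they were -0.88 and -0.15. In HFD vs LFD the blocked values were -0.96 ± 0.48 and -0.36 ± 0.44 (adjusted p 1 for both, limma). Within slide 1 they were -1.81 and -0.80, within slide 3 -1.37 and -0.91, and within slide 5, with 1 array of each diet, 0.83 and 0.30. Without HPD replicate 7, the array whose labels differ, HPD vs LFD was -1.33 ± 0.47 at probe 1 and -1.10 ± 0.43 at probe 2. At probe 2 the HPD vs LFD difference stood at -0.69 ± 0.39 without HPD replicate 3, and the HFD vs LFD difference at -0.23 ± 0.37 without HFD replicate 2. When the background was modelled by normexp with an offset of 50, the probe 1 difference in HPD vs LFD was -0.185 ± 0.092 (unadjusted p 0.0606, adjusted 1) and that in HFD vs LFD was -0.151 ± 0.092 (unadjusted p 0.119, adjusted 1), while probe 2 stood at -0.90 ± 0.38 in HPD vs LFD. The offset is added to both channels and is large beside the probe 1 Cy5 signals of 7.87 to 57.3 units. It compresses the ratios and SEs of this probe, so these values are not on the scale of the main fit.

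Slc2a4 probe 2 moved with the platelet genes. The mean log2 ratio of 9 platelet genes (among them Pf4, Ppbp, Itgb3 and Gp9, all above background on 18 arrays) ran from -1.36 to -0.15 in HPD, -2.09 to 0.99 in HFD and -0.64 to 1.31 in LFD. All 9 had a lower mean in HPD than in LFD, in HPD than in HFD and in HFD than in LFD (46.1, 47.7 and 48.5% of all probes), with median differences of -0.604, -0.292 and -0.232, and 0 reached an unadjusted p under 0.05 in any of these. Over 18 arrays Slc2a4 probe 2 correlated with this mean at r = 0.79 and rho = 0.85 (permutation p 5e-05 and 2e-05; adjusted over 117 relations of member probes with marker lists 0.00585 and 0.00234). Without HFD replicate 2 and LFD replicate 2, r was 0.78, and with slide means removed it was 0.83. Within diets r was 0.99 in HPD, 0.89 in HFD and 0.28 in LFD, 6 arrays each. For probe 1 r was 0.67 and rho 0.60 (adjusted p 0.0536 and 0.133), which missed the threshold, and r was 0.47 without the same 2 arrays. The part of platelets in the Slc2a4 differences was not tested. Of 6 adipocyte genes, Adipoq, Plin1, Lep, Fabp4 and Cidec were above background on at most 3 of 18 arrays, and Cfd was above on all 18. Of 7 muscle genes on the array 5 were tested (Acta1, Myh2, Mb, Des and Tnnt3), and Ckm and Myh7 were above background on at most 1 array.

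**Figure D4:**
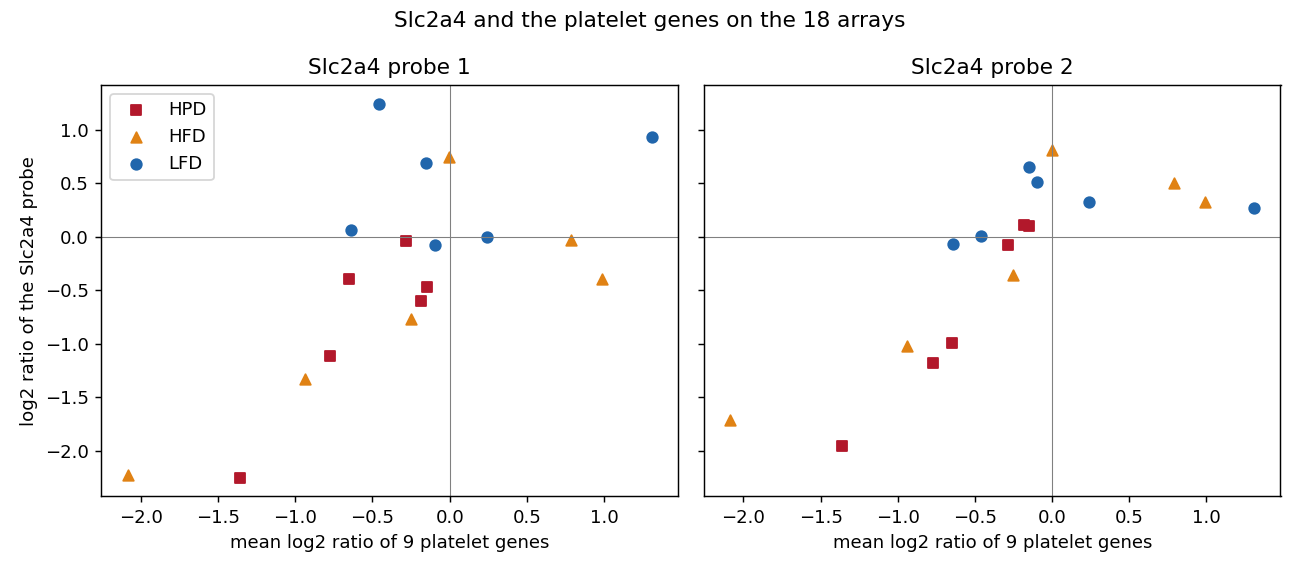
Log2 ratio of Slc2a4 probe 1 (left) and probe 2 (right) on the y axis against the mean log2 ratio of 9 platelet genes on the x axis, with 1 point per array for HPD (squares), HFD (triangles) and LFD (circles). HPD replicate 3 and HFD replicate 2 lie lowest on both axes, and r is 0.67 for probe 1 and 0.79 for probe 2.

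Adipor1, the adiponectin receptor more tied to AMPK, varied least among animals of the members above background (within-diet SD 0.25; chromosome 13, 47379172 to 47379231). Its log2 ratios were -0.46, -0.25 and -0.15 in HPD, -0.47, 0.039 and 0.27 in HFD, and -0.30, -0.096 and 0.595 in LFD. All 6 HPD arrays were below 0 and below the means of both other diets, and 3 of 6 LFD arrays lay above every HPD array. The difference was -0.26 ± 0.15 in HPD vs LFD (95% interval -0.57 to 0.056; unadjusted p 0.101, adjusted 1, limma), -0.25 ± 0.15 in HPD vs HFD (-0.56 to 0.062; unadjusted p 0.109, adjusted 0.995) and -0.006 ± 0.15 in HFD vs LFD (-0.32 to 0.31; unadjusted p 0.968, adjusted 1). With slide as a block the first 2 values were -0.14 ± 0.18 and -0.11 ± 0.18, and without LFD replicates 2 and 6 HPD vs LFD was -0.14 ± 0.13. Within slides HPD vs LFD was -0.29 on slide 3 and 0.020 on slide 4. Adipor1 correlated with the platelet mean at r = 0.71 and rho = 0.67 (adjusted p 0.0536 and 0.0799) and with the mean of 6 monocyte genes at r = 0.68 and rho = 0.74 (adjusted p 0.0536 and 0.0265). Without HFD replicate 2 and LFD replicate 2 the platelet value of r was 0.74, and without HFD replicate 1 and HPD replicate 4 the monocyte value was 0.63. The monocyte mean ran from -1.51 to 0.49 in HPD, -0.59 to 0.90 in HFD and -0.71 to 0.28 in LFD. With the mean of 13 erythroid genes Adipor1 had r = 0.63 and rho = 0.62 (adjusted permutation p 0.0757 and 0.133). That r was 0.48 with slide means removed, and within diets -0.68 in HPD, 0.63 in HFD and 0.67 in LFD. The part of any of these cell types in the Adipor1 values was not tested.

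Adipor2, the adiponectin receptor tied to PPAR alpha in mouse liver, had 2 probes that did not follow each other over the 18 arrays. Probe 1 (chromosome 4, 155664143 to 155665615) gave log2 ratios of -0.51, -0.090 and 0.19 in HPD, -0.19, 0.092 and 0.45 in HFD, and -0.49, -0.12 and 0.42 in LFD. Probe 2 (155663626 to 155663679) gave -0.42, 0 and 0.38 in HPD, -0.45, 0.012 and 0.25 in HFD, and -0.39, 0.031 and 0.28 in LFD. Their correlation over 18 arrays was r = -0.26 and rho = -0.32 (permutation p 0.296 and 0.198). With slide means removed r was 0.46, and without LFD replicates 2 and 6 it was -0.07. Within diets r was 0.57 in HPD, -0.18 in HFD and -0.84 in LFD. In HPD vs HFD probe 1 gave -0.22 ± 0.16 and probe 2 gave 0.074 ± 0.16 (unadjusted p 0.178 and 0.655; adjusted 0.995 for both, limma). In HPD vs LFD they gave -0.077 ± 0.16 and 0.045 ± 0.16, and in HFD vs LFD 0.14 ± 0.16 and -0.029 ± 0.16, all with adjusted p 1 (limma). The intervals of all 6 differences lay within -0.55 and 0.47. Probe 1 went with Pik3r1 at r = 0.73 and rho = 0.85 (adjusted p 0.00355 and 0.00156), at r = 0.83 without HFD replicate 3 and LFD replicate 1, and at r = 0.37 with slide means removed.

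**Figure D5:**
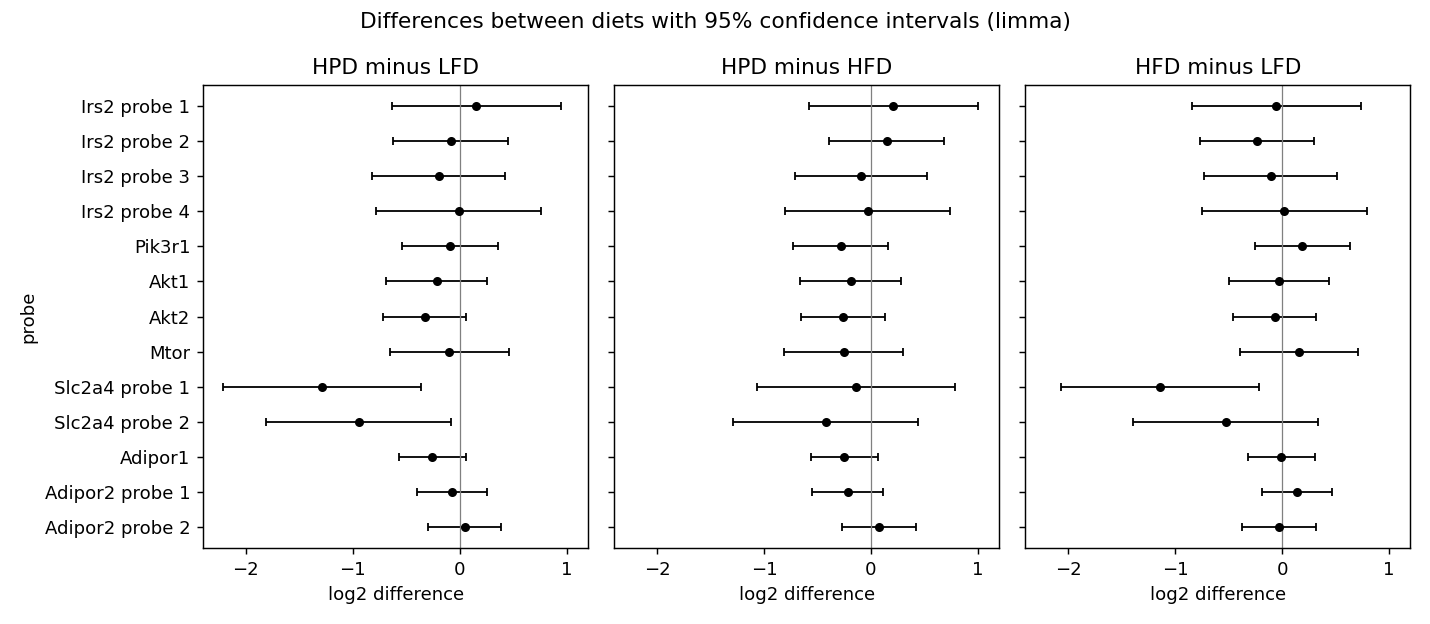
Differences in log2 ratio (x axis) for the 13 tested probes (y axis) in HPD minus LFD (left), HPD minus HFD (middle) and HFD minus LFD (right), with 95% confidence intervals from limma that are not adjusted for the number of probes. The intervals of both Slc2a4 probes in HPD minus LFD and of probe 1 in HFD minus LFD lie below 0, and all others include it.

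The wider pathway was read from a list of 87 further genes, of which 78 were on the array and 70 were tested, each at its brightest probe. None passed in any comparison (limma, 0 of 70 each). At an unadjusted p under 0.05 there were 1, 2 and 2 of 70 in HPD vs LFD, HPD vs HFD and HFD vs LFD. Over all probes the shares were 2.84, 3.02 and 2.01%, so the list did not stand out in these counts. Of these genes 52.9% were lower in HPD vs LFD, 64.3% in HPD vs HFD and 40% in HFD vs LFD, with median differences of -0.007, -0.052 and 0.032. In HPD vs LFD the genes named by smallest p in each direction were the ribosomal protein Rps6, a target of the mTOR branch, at 0.26 ± 0.10, and the cap-binding factor Eif4e at 0.18 ± 0.094, against the AMPK subunit Prkab1 at -0.23 ± 0.13. In HPD vs HFD they were the adaptor Sh2b2 at 0.23 ± 0.14 and the Akt target Foxo3 at 0.18 ± 0.14, against the adaptor Grb2 at -0.38 ± 0.15 and the adiponectin receptor partner Appl2 at -0.59 ± 0.27. In HFD vs LFD they were the docking protein Gab1 at 0.90 ± 0.35 and the Akt-activating kinase Pdpk1 at 0.22 ± 0.12, against the mTOR inhibitor Tsc2 at -0.37 ± 0.18 and Prkab1 at -0.20 ± 0.13. The unadjusted p was 0.0181 for Rps6, 0.0194 for Grb2, 0.0433 for Appl2, 0.0202 for Gab1 and 0.0492 for Tsc2, and adjusted p-values were 1 or 0.995 (limma). By sublist, the further receptor adaptors were lower for 5 of 9 genes in HPD vs LFD, 7 of 9 in HPD vs HFD and 2 of 9 in HFD vs LFD. The phosphoinositide kinases and phosphatases were lower for 7, 8 and 3 of 10 genes in the same order of comparisons, and further genes on the list of Akt and its targets for 6, 6 and 8 of 12. Subunits and regulators of the mTOR complexes were lower for 12, 14 and 9 of 22 genes, mTOR targets for 4, 4 and 1 of 8, and the AMPK and adiponectin branch for 3, 6 and 5 of 9. Over all probes 46.1, 47.7 and 48.5% were lower.

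The genes most like each member over 18 arrays, by Pearson's r at its brightest probe among all named genes tested, are given as a description. For Slc2a4 they were the secreted phospholipase Pla2g2a (r = 0.919, rho = 0.882) and clusterin, Clu (0.915, 0.856). For Adipor1 they were B2m, the light chain of MHC class I (0.955, 0.922), and Mkrn1 (0.930, 0.882). For Akt1 they were the interleukin 10 receptor chain Il10ra (0.970, 0.868) and the G protein subunit Gnb2 (0.962, 0.886), and for Mtor the chromatin remodeller Chd4 (0.975, 0.866) and the peroxisomal protease Lonp2 (0.969, 0.876). For Akt2, Klhl17 was among the closest (0.848, 0.839). Irs2 was most like Rnf19a (0.978, 0.975) and Cdadc1 (0.975, 0.969), Pik3r1 like Rnf113a2 (0.965, 0.922) and Trim35 (0.936, 0.911), and Adipor2 like the nuclear pore gene Nup98 (0.932, 0.95) and the interferon gamma receptor Ifngr1 (0.932, 0.926). These likenesses include the differences between slides and the wide ratios of LFD replicates 2 and 6.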

How the data were processed

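RNA of 18 samples was measured on 2-colour Agilent 4x44K arrays. Per the file headers and the submitters' processing notes, the authors read them with Agilent Feature Extraction 10.5.1.1, and the deposited processed intensity of each channel is background-subtracted and dye-normalized. The authors' processed log2 table (20256 probes, column median 8.4), deposited without a statement of its scale or centring, served as an alternative. From the intensities, log2 of Cy5 over Cy3 was taken, spots the scanner software marked as outliers were set to missing, control spots left out and spots of a probe averaged. Testing was limited to the 25207 probes whose Cy5 signal exceeded background clearly, by the scanner software's own call, on 5 or more arrays. Diets were compared with limma 3.58.1 in R 4.3.3 (1 fit over 18 arrays, no covariates, Benjamini-Hochberg adjustment, threshold 0.05), a procedure tested on simulated data. Correlations were tested with 100000 permutations of the 18 arrays, which were not kept within slide or diet. Probe positions are on rn4 per the file headers, and the exon or UTR they fall in was not looked up. All 10 genes and every probe of them were named. Of the pathway list, the 2 genes of smallest p in each direction were named, and of genes alike to a member the closest 2, except that some items are not reported here. The members and lists were chosen with earlier results of these data known. Alternatives changed the background model, normalization, filter, slide, array weights, disputed label and arrays used.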

Additional observations from a re-analysis of the deposited data

Results flagged for a closer look

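Of 39 sets of 6 arrays (13 member probes in 3 diets), 1 held an array that lay apart from the rest by Dixon's test at 95%, where chance alone gives about 1 in 20. Adipor1 on LFD replicate 2 had a log2 ratio of 0.595, above the other LFD arrays. That array is also one of the pair with the widest log2 ratios over all probes. Without it, Adipor1 in HPD vs LFD had the smallest difference of the leave-one-out fits, at -0.136, against -0.257 with all arrays.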

How the results depend on the processing

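Of 39 member differences, 17 kept their direction under all of the 38 alternatives that could be run for them, and no member passed under any (lowest adjusted p 0.469, limma). The HPD vs LFD differences of both Slc2a4 probes, Akt2, Adipor1 and Irs2 probe 3 were among these 17. Slc2a4 ran from -1.40 to -0.164 at probe 1 and from -1.10 to -0.75 at probe 2 over alternatives, and from -1.44 to -0.998 and from -1.10 to -0.69 when single arrays were left out. Its probe 1 moved by more than the spread between animals under normexp, where an offset added to both channels compresses the ratios of a dim probe. Normexp was also run with a smaller offset of 10 in place of 50, and that setting too moved a member difference by more than this spread. How much the offset and the background model each gave was not worked out. Akt2 ran from -0.53 to -0.195 and Adipor1 from -0.38 to -0.114 over alternatives. Over all probes, HPD vs LFD called 2 with array weights (Rarres2 at -1.59 ± 0.23 and Fscn3 at -0.83 ± 0.12, adjusted p 0.0346 each, limma) and between 0 and 1 when single arrays were left out (Rarres2 at -1.63 ± 0.22 without LFD replicate 2, adjusted p 0.0374). Both probes were named after their values were seen. All other counts of calls, for members and over all probes, stayed at 0 under each alternative. Slc2a4 probe 1 had no value in 3 alternatives, as it was not in the deposited table, not above background on all arrays and not its gene's brightest probe. The labels do not say whether replicate numbers pair the animals. Same-numbered arrays of different diets correlated between -0.32 and 0.23, over 0.1 in 6 of 16 pairs. Such correlations cannot show whether the numbers mark pairs in feeding. With the replicate block, 0 members and 0 probes passed, and Slc2a4 in HPD vs LFD stood at -1.32 ± 0.48 and -1.01 ± 0.48 (adjusted p 0.982 for both). The alternative without LFD replicates 2 and 6 was chosen after seeing the data. Dim signal limits Insr, Irs1 and Slc2a4 probe 1, and Gab1 among the named genes of the wider pathway.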

Other observations

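Rarres2, which encodes the adipokine chemerin, lies outside the insulin pathway list and stood at -1.41 in HPD vs LFD with all arrays, where it did not pass. Among marker lists, 13 of 13 erythroid genes, 6 of 6 monocyte genes and 6 of 6 cytotoxic cell genes, like the 9 of 9 platelet genes given above, had lower means in HPD than in LFD and in HPD than in HFD (46.1 and 47.7% of all probes). The median differences of the erythroid, monocyte and cytotoxic lists were -0.72, -0.40 and -0.22 in HPD vs LFD and -0.74, -0.52 and -0.25 in HPD vs HFD. None passed limma's test over all probes, and 1, 0 and 0 of these genes reached an unadjusted p under 0.05 in HPD vs LFD (2.84% of all probes) and 0, 1 and 1 in HPD vs HFD (3.02%). T cell genes had median differences of -0.005 in HPD vs LFD and 0.10 in HPD vs HFD. In the same order, the medians were 0.065 and -0.046 for B cell genes and 0.351 and 0.094 for 3 neutrophil genes. For muscle genes they were -0.093 and 0, and Cfd of the adipocyte list stood at -0.89 and -0.99. Genes of a list shared arrays and can vary together, so the counts of lower genes, platelet genes included, are not independent.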
